A study of Homo sapiens with 24 samples.

Results

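Chaperones fold and refold proteins in the cytosol, in mitochondria and in the endoplasmic reticulum (ER), and stress pathways set how much of each is made. Here 50 chaperone and ER stress genes, a list of named genes, were followed by RNA-seq through 7 lines that each expressed a different miRNA. The list held 21 cytosolic genes, 4 mitochondrial genes, 16 ER chaperones and ER folding factors, and 9 genes of ER stress signalling, of 29794 genes in the count tables. All 50 were found by identifier and all 50 passed the filter on low counts in both batches.

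The cells were Flp-In T-REx cells, a derivative of the HEK293 human embryonic kidney line, transduced with a lentiviral cassette in which the miRNA hairpin sits in an intron of a doxycycline-induced GFP transcript. In batch 1 the groups were empty vector, miR-1 and miR-122, with 2 libraries each. Batch 2 held an empty vector group and groups with miR-155, miR-133a, miR-373, miR-372 and miR-302a, with 3 libraries each. Every group, the empty vector included, received doxycycline at 1 µg/mL over 7 days and geneticin at 1 mg/mL over 6 days. Replicates were transduced and kept as separate cultures. The comparisons ask how the steady-state mRNA of the chaperone genes differs when a miRNA is expressed, and the controls carried the same vector, drug selection and doxycycline.

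Heat shock factor 1 (HSF1) is the transcription factor that induces cytosolic chaperones when unfolded protein accumulates, and BAG3, DNAJB1 and the inducible HSP70 genes are among its classical targets. In the ER, misfolded protein is sensed by IRE1 (gene ERN1), which splices XBP1 mRNA, by PERK (gene EIF2AK3), which raises translation of ATF4, and by ATF6, which is cleaved to a transcription factor. ATF4 and the factor CHOP (gene DDIT3) drive ASNS, TRIB3 and CHAC1, while XBP1 and ATF6 drive ER chaperones such as HSPA5 (BiP). A miRNA pairs through its seed, bases 2 to 8 from its 5′ end, with sites that lie mostly in the 3′UTR of a target mRNA, and usually lowers that mRNA.

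The mature guide strands (RefSeq, GRCh38.p14) are shown with the seed in capitals, because the searches below rest on these letters.
miR-1: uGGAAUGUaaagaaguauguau
miR-122: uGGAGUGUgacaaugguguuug
miR-133a: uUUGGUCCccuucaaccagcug
miR-155: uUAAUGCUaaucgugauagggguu
miR-302a: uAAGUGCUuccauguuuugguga
miR-372: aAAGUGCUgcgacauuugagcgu
miR-373: gAAGUGCUucgauuuuggggugu
The 7 miRNAs carry 5 seeds, since AAGUGCU is shared by miR-373, miR-372 and miR-302a. The libraries held polyadenylated RNA, and levels of the mature miRNAs were not analysed here.

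Total counts ran from 20153452 to 21595191 per library in batch 1 and from 13047400 to 35040778 in batch 2. The HEK293 markers KRT8, KRT18 and VIM were present in every library (at least 80.1 CPM, counts scaled to library size), PAX2 and NEFM were low, and the blood, liver, endothelial and cardiac markers PTPRC, CD3E, ALB, APOA1, CDH5 and MYH7 had at most 7 counts in any library. The muscle markers ACTA1 and DES had up to 32 and 36 counts (at most 1.21 and 1.42 CPM), and DES was called higher with miR-302a (1.95, log2), miR-372 (2.47) and miR-373 (2.18). KRT8 was called higher in all 5 miRNA groups of batch 2, which share their controls. The part of these markers in the results was not tested. In batch 2, replicate 2 of miR-155, of miR-302a and of miR-372 had the lowest scores (-23.2, -17.9 and -29.8) on the leading component of the deviations from group means, which held 34.2% of their variance. Replicate 3 of miR-372 (19.8) and of miR-373 (15.5) had the highest. In these libraries 39, 34 and 36 of the 50 members were the highest of their group of 3, against 41.0%, 38.0% and 41.1% of all genes tested, and the median member lay 0.20, 0.16 and 0.22 (log2) above the other libraries of its group. In replicate 3 of miR-372 and of miR-373 the median member lay at -0.22 and -0.18. Counts of calls in batch 2 are therefore given with and without those 3 replicate 2 libraries, a choice made after the data were seen, while the libraries at the high end were left out only singly. The part of these libraries in other results was not tested. In batch 1 the empty vector libraries lay furthest apart on the leading component (36.25% of variance), at -12.85 (replicate 1) and 12.85 (replicate 2). Scores were 4.389 and -4.389 for miR-1, and 2.656 and -2.656 for miR-122. Of the 50 members 38 were higher in replicate 2 of the empty vector and 12 in replicate 1. All comparisons with the empty vector in batch 1 rest on these libraries. How their difference enters the calls was examined only by leaving out single libraries. Fewer cells with a transcript and less transcript per cell cannot be told apart in these bulk libraries.

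**Figure D1:**
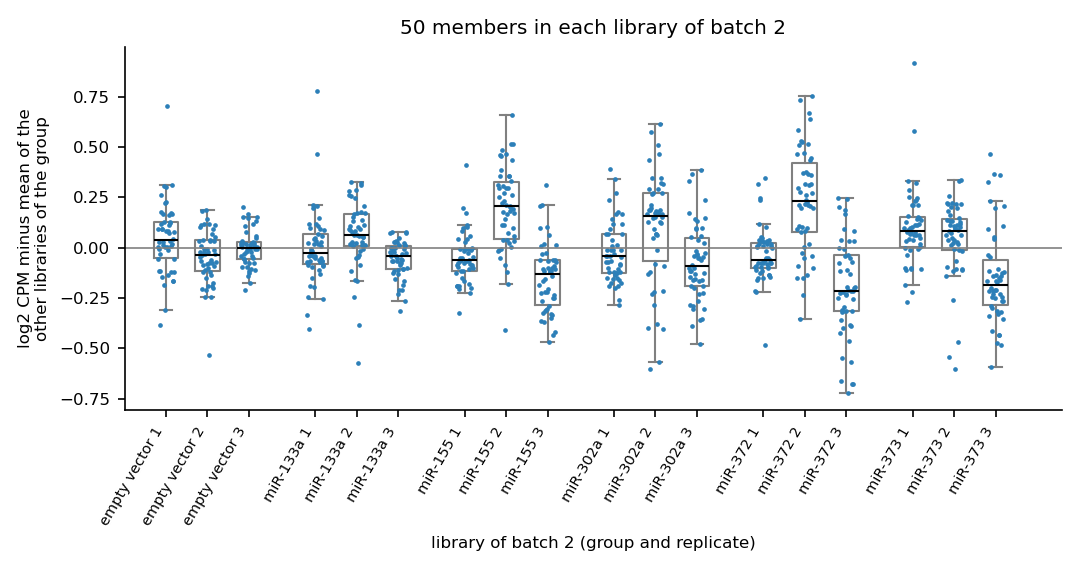
The log2 CPM of each of the 50 members in each library of batch 2 (x axis, group and replicate), minus the mean of the other libraries of its group (y axis). Each dot is a member, and boxes show the median and quartiles. The median sits at 0.20, 0.16 and 0.22 in replicate 2 of miR-155, miR-302a and miR-372, and at -0.22 in replicate 3 of miR-372.

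In unperturbed levels, the means in the empty vector of batch 2 ran from 10.6 CPM for HSPA2 to 3140 CPM for HSP90AA1. This leaves aside HSPA1A, listed at 0.781 CPM, whose reads are uncertain as given below. Per kilobase of exon in the empty vector of batch 2, the HSP90 genes led with 714 ± 65.5 CPM/kb for HSP90AA1, 681 ± 25.4 for HSP90AB1 and 408 ± 38.1 (SD, n = 3) for HSP90B1, the ER-resident HSP90. The ER lectin chaperone CALR (371.9 ± 9.39), the inducible HSP70 gene HSPA1B (301 ± 11.2) and the mitochondrial chaperonin HSPD1 (232 ± 12.0) followed. At the other end stood ERN1 (1.78 ± 0.154), the testis-rich HSP70 gene HSPA2 (3.72 ± 0.219), EIF2AK3 (4.32 ± 0.558) and DNAJB9 (5.51 ± 0.542), an ER cochaperone that is a classical readout of XBP1. The same 3 HSP90 genes led in batch 1, where HSPA1B was lower, at 178 ± 8.80 CPM/kb (SD, n = 2), than in batch 2. Levels of the batches come from separate tables and their difference was not tested.

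HSPA1A was listed at only 0.462 ± 0.0213 CPM/kb in batch 1 and 0.321 ± 0.0983 in batch 2. It lies at chr6:31783320-31785723 (GRCh37, + strand) beside its near-identical copy HSPA1B (chr6:31795515-31798031, + strand), and the counting kept only reads of a mapping quality of at least 50, so the split of reads between the copies is uncertain and their values are best read together. Members with processed pseudogenes carry the same limit in part: 17 members have annotated pseudogenes that bear their name, with 26 for HSPE1, 18 for HSPD1 and 17 for HSPA8. In GENCODE, 12 members share exon sequence with another gene on the same strand, among them DNAJB4 with GIPC2 and HSPE1 with HSPE1-MOB4.

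miR-1 changed 23 of the 50 members, of which 10 fell and 13 rose, by at most 0.38 on the log2 scale among those that fell and 0.34 among those that rose. That is 46.0% of the members, against 24.5% of all 14348 genes tested in the same comparison (13.7% lower and 10.8% higher; edgeR's quasi-likelihood test, adjusted p under 0.05 over all genes). Here and below, such shares are not matched for level: many members were abundant, and the SE was larger at low counts. The list was also chosen with earlier results of these data known. The part of level and choice in the difference between the shares was not tested. For fits with a single library left out, here and below, the share of all genes called was not counted. The median log2 fold change of the members was 0.04, that of all genes tested -0.0001. By compartment, the cytosolic genes counted 2 lower and 8 higher of 21, the mitochondrial genes 1 and 1 of 4, the ER chaperones 3 and 3 of 16, and the signalling genes 4 and 1 of 9. Without a single library of this comparison the count of called members ranged from 12 (without replicate 1 of miR-1) to 23.

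**Figure D2:**
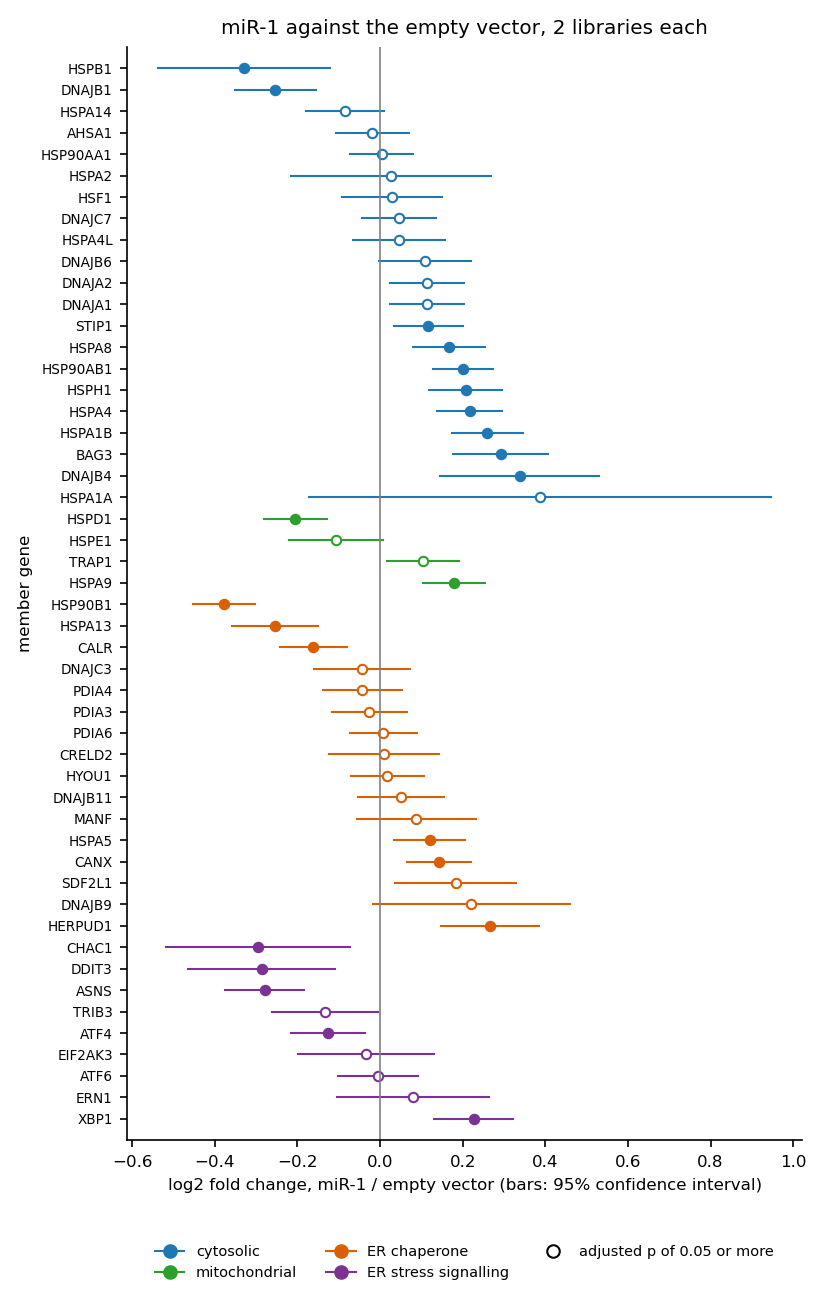
The log2 fold change of each member between miR-1 and the empty vector of batch 1 (x axis) with its 95% confidence interval, grouped by compartment (colour). Filled circles are the 23 members with an adjusted p under 0.05. Of the cytosolic members 8 filled circles lie right of 0 and 2 left, and of the 9 signalling genes 4 lie left and 1, XBP1, right.

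Among cytosolic genes, BAG3, the cochaperone that couples HSP70 to small heat shock proteins and autophagy, had 49.6 and 48.3 CPM in the empty vector libraries and 57.9 and 62.0 CPM with miR-1. The groups did not overlap, and BAG3 rose by 0.29 ± 0.055 (log2, SE; adjusted p = 0.000708). HSPA1B stood at 434 and 465 CPM in the controls and at 541 and 535 CPM with miR-1, a rise of 0.26 ± 0.041 (adjusted p = 0.000125). DNAJB4, an HSP40 cochaperone, went from 14.7 and 17.3 CPM to 20.4 and 20.1 CPM (0.34 ± 0.093, adjusted p = 0.0118), a call lost without replicate 1 of either group and under DESeq2. The constitutive chaperones rose by less: HSPA4 by 0.22, its relative HSPH1 by 0.21, HSP90AB1 by 0.20, HSPA8 by 0.17 and the HSP70–HSP90 adaptor STIP1 by 0.12. BAG3 and HSPA1B were called in every alternative fit and with any library left out.

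The cytosolic genes that fell were HSPB1 and DNAJB1. HSPB1, the small heat shock protein HSP27, had 12.8 and 13.2 CPM in the controls and 10.6 and 10.1 CPM with miR-1 (-0.33 ± 0.099, adjusted p = 0.0204), a call lost under DESeq2 and without any library but replicate 1 of the empty vector. DNAJB1, the HSP40 partner of HSP70 in the heat shock response, had 102 and 108 CPM in the controls and 87.5 and 88.8 CPM with miR-1 (-0.25 ± 0.047, adjusted p = 0.000604). HSF1 mRNA was at 64.2 and 67.6 CPM against 71.0 and 63.5 CPM, overlapping groups with a difference of 0.03 (95% confidence interval -0.09 to 0.15, adjusted p = 0.751). Genes of the heat shock response thus moved in both directions, with BAG3 and HSPA1B higher and DNAJB1 and HSPB1 lower in the same libraries.

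In mitochondria, the chaperonin HSPD1 (HSP60) fell from 700 and 717 CPM to 615 and 615 CPM (-0.21 ± 0.037, adjusted p = 0.000419), whereas the mitochondrial HSP70 HSPA9 rose from 708 and 708 CPM to 807 and 796 CPM (0.18 ± 0.036, adjusted p = 0.00127). HSPE1 (HSP10), the lid of the HSPD1 chaperonin, whose gene shares a bidirectional promoter region with it on chromosome 2, was at -0.11 (adjusted p = 0.17), and the mitochondrial HSP90 TRAP1 at 0.10 (adjusted p = 0.0732). The 4 mitochondrial genes each had miR-1 libraries entirely above or below the controls, as 61.3% of all genes tested did.

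Of the ER chaperones the change of HSP90B1 (GRP94) was the largest of the whole set in size among calls. Its controls stood at 1135 and 1156 CPM and its miR-1 libraries at 876.3 and 887.5 CPM, a fall of 23.0% (-0.38 ± 0.036, adjusted p = 2.54e-07). HSPA13, an ER-associated HSP70, fell from 74.7 and 73.9 CPM to 62.8 and 61.9 CPM (-0.25 ± 0.050, adjusted p = 0.00102), and CALR from 657 and 692 CPM to 608 and 598 CPM (-0.16 ± 0.039, adjusted p = 0.00494). In the same libraries its membrane-bound homologue CANX rose by 0.14 ± 0.037 (adjusted p = 0.00867). HERPUD1, an ER membrane protein of ER-associated degradation, rose from 54.8 and 57.1 CPM to 70.7 and 63.8 CPM (0.27 ± 0.056, adjusted p = 0.00195), a call lost without replicate 1 of miR-1.

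HSPA5 (BiP), the main ER HSP70 and the usual gauge of the unfolded protein response, stood at 385 and 401 CPM in the controls and at 432 and 423 CPM with miR-1, a rise of 0.12 ± 0.041 (adjusted p = 0.0386) that was called, of the 4 fits with a library left out, only without replicate 2 of the empty vector, and not under DESeq2 or with the replicate number as a block. DNAJB9 was at 13.5 and 14.7 CPM against 18.3 and 14.4 CPM, overlapping groups (0.22, adjusted p = 0.169). The disulphide isomerases PDIA3, PDIA4 and PDIA6 lay between -0.04 and 0.01, and HYOU1, CRELD2 and DNAJB11 between 0.01 and 0.05, none of them past the threshold.

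Of the 9 signalling genes 7 lay below 0. ASNS, asparagine synthetase and an ATF4 target, fell from 350 and 355 CPM to 296 and 286 CPM (-0.28 ± 0.046, adjusted p = 0.000193), a call that every alternative and every left-out library kept. DDIT3 fell from 21.8 and 23.7 CPM to 18.8 and 18.6 CPM (-0.29 ± 0.085, adjusted p = 0.0192) and CHAC1, a glutathione-degrading enzyme downstream of ATF4, from 11.0 and 11.7 CPM to 9.80 and 8.68 CPM (-0.30 ± 0.106, adjusted p = 0.0488). ATF4 itself was at 457 and 471 CPM against 438 and 413 CPM (-0.13 ± 0.043, adjusted p = 0.038). The calls of DDIT3, CHAC1 and ATF4 were each lost without replicate 2 of the empty vector or without either miR-1 library. Of the 6 other fits DDIT3 was called in 5 (not under DESeq2), ATF4 in 3 and CHAC1 in 2.

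XBP1 moved the other way. Its mRNA, in which spliced and unspliced forms are counted together, rose from 104 and 108 CPM to 127 and 121 CPM (0.23 ± 0.045, adjusted p = 0.00119), and the call held in every alternative. The sensors did not pass the test: ERN1 was at 0.08, EIF2AK3 at -0.03 and ATF6 at -0.004.

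Matches to the miR-1 seed were sought in the longest annotated 3′UTR of each gene (GRCh37, which shares its coordinates with hg19) as 8mer, 7mer-m8 or 7mer-A1 sites, that is a match to bases 2 to 8 followed by A, to bases 2 to 8, or to bases 2 to 7 followed by A. Such a site was present in 8 of 50 members, or 16.0%, against 21.8% of 18434 genes with a 3′UTR. Of the 10 members that fell 4 had a site, of the 13 that rose 2 (CANX and HSPH1), and the remaining 2 (DNAJC7 and HSPE1) were not called. The sites of the 4 that fell are shown with the matched bases in capitals, as mRNA-sense DNA.
HSP90B1, 7mer-m8, chr12:104347588-104347594, + strand: acaacccttgcACATTCCcaattataatg
HSPD1, 7mer-m8, chr2:198351529-198351535, - strand: aaaacatttgtACATTCCtgatactgggt
ASNS, 7mer-m8, chr7:97481182-97481188, - strand: ttgttctgcctACATTCCtaacagctgcc
DNAJB1, 7mer-A1, chr19:14626521-14626527, - strand: gcaggaaaaggCATTCCAgtctgccccac
The 3 members with a 7mer-m8 site, HSP90B1, HSPD1 and ASNS, were all among those that fell, while the 7mer-A1 sites fell to members of either direction or none. Here and for the seeds below, calls among all genes with a site of a given type were not counted. These few members therefore have no share of all genes to be set against. No member had an 8mer. HSPB1, CHAC1, DDIT3, HSPA13, CALR and ATF4 fell with no match in the 3′UTR searched. A match is a sequence description and was not tested as a site.

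Set directly against miR-122, with no control library in the contrast, miR-1 differed in 20 of 50 members, 9 lower and 11 higher (40%, against a background of 31.2% of all genes tested, 16.0% lower and 15.2% higher). Without replicate 1 of miR-122 the count was 13. HSP90B1 was lower by 0.41 ± 0.036 (adjusted p = 4.8e-08), ASNS by 0.34 ± 0.046 and HSPD1 by 0.28 ± 0.037, and HSPB1 by 0.44 ± 0.098 (adjusted p = 0.00203). TRIB3, an ATF4 and CHOP target, was lower by 0.40 ± 0.060 (adjusted p = 4.28e-05), with 51.2 and 47.1 CPM in miR-1 against 66.8 and 63.4 CPM in miR-122. HSPA4, HSPH1, HSPA8 and DNAJA1 were higher in miR-1 by 0.27, 0.26, 0.24 and 0.25. HSPA1B (0.04), XBP1 (0.05) and DNAJB1 (-0.08) did not pass the test between the miRNAs.

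miR-122 against the empty vector called 4 of 50 members, 1 lower and 3 higher. That is 8%, against a background of 5.92% (4.06% lower, 1.86% higher). HSPA1B rose from 434 and 465 CPM to 514 and 532 CPM (0.22 ± 0.041, adjusted p = 0.00189) and XBP1 from 104 and 108 CPM to 119 and 121 CPM (0.17 ± 0.046, adjusted p = 0.0253). TRIB3 rose from 51.3 and 56.5 CPM to 66.8 and 63.4 CPM (0.27 ± 0.060, adjusted p = 0.00743). DNAJB1 fell from 102 and 108 CPM to 93.8 and 92.8 CPM (-0.17 ± 0.047, adjusted p = 0.0323). No library of any of these 4 genes overlapped the controls, as was so for 47.6% of all genes tested. HSPA1B, XBP1 and DNAJB1 were called in the same direction for miR-1, and both comparisons share the 2 control libraries. XBP1 and DNAJB1 were not called under DESeq2 or with the block, nor was DNAJB1 in the fit of only these groups. TRIB3 was lost without replicate 1 of miR-122, HSPA1B without its replicate 2, and without either only 1 member was called.

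The miR-122 seed had a match in the 3′UTR of 7 members (14.0%, against 23.3% of genes), of which DNAJB1 alone was called lower.
DNAJB1, 7mer-m8, chr19:14626348-14626354, - strand: ccagaccctgtACACTCCtccttttctgt
The 8mers were in ERN1 and ATF6, which stood at 0.12 and -0.04 (adjusted p = 0.479 and 0.735). Across the 16 ER chaperones no gene was called for miR-122, and the range was -0.07 to 0.17.

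**Figure D3:**
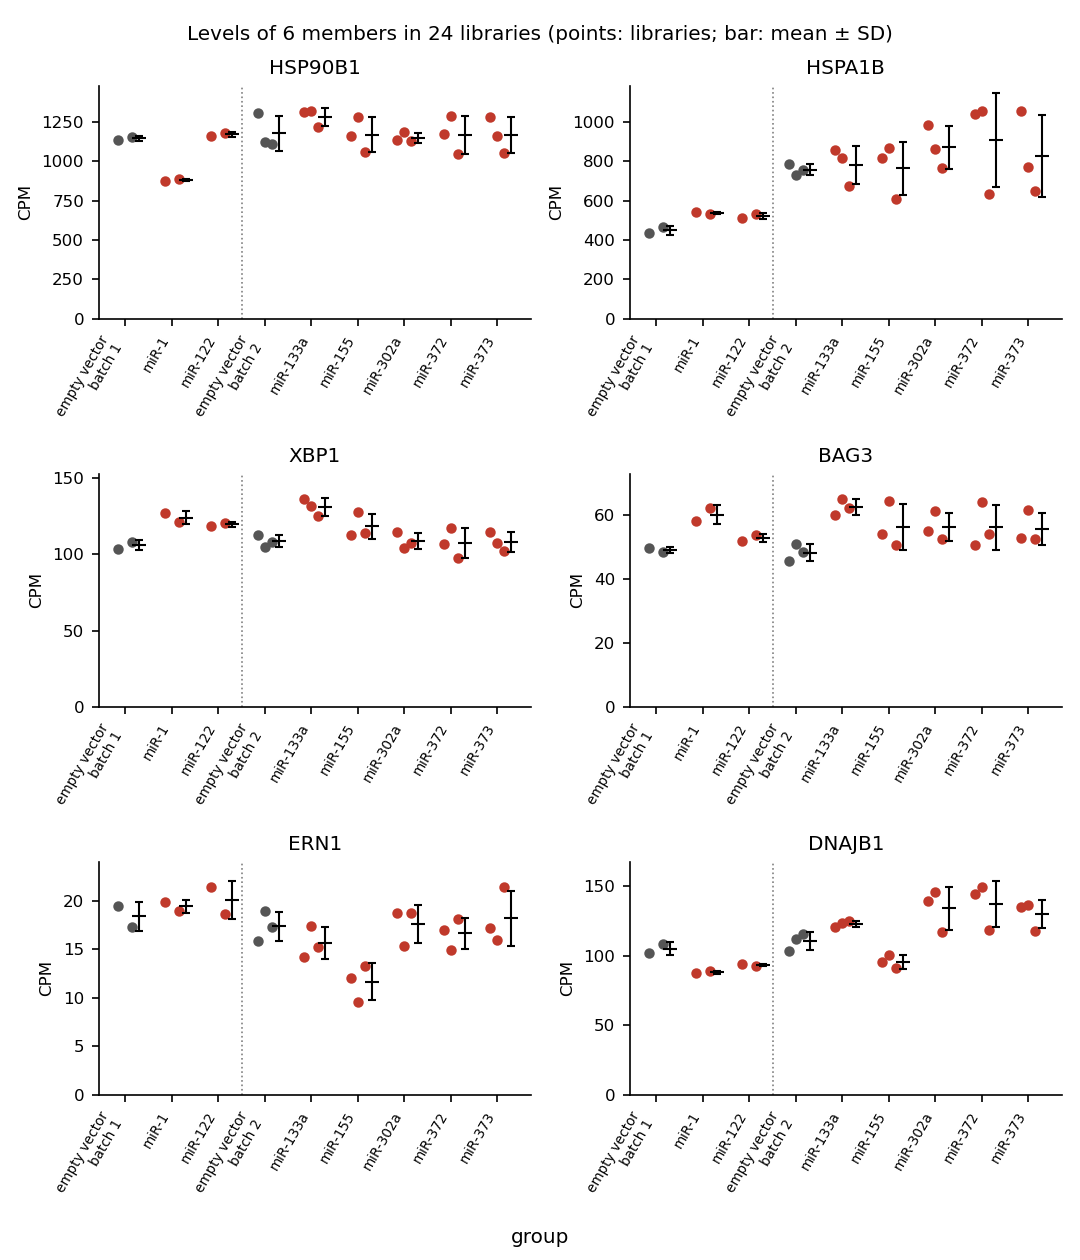
CPM (y axis, from 0) of HSP90B1, HSPA1B, XBP1, BAG3, ERN1 and DNAJB1 in the 24 libraries by group (x axis). Points are libraries, grey for empty vector and red for a miRNA, bars are mean ± SD over the 2 or 3 libraries, and the dotted line parts the batches. HSP90B1 sits at 876.3 and 887.5 CPM with miR-1 against 1135 and 1156 CPM in its controls, and ERN1 at 9.56 to 13.3 CPM with miR-155 against 15.9 to 18.9 CPM.

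In batch 2 the largest change among the called members was that of HSPA4L, a cytosolic HSP110-type nucleotide exchange factor of HSP70. Its empty vector libraries stood at 132.7, 130.2 and 122.2 CPM. The miR-302a libraries stood at 69.5, 80.0 and 72.0 CPM, those of miR-372 at 67.6, 60.5 and 65.3 CPM, and those of miR-373 at 69.5, 67.8 and 63.8 CPM. All 9 libraries of these 3 groups were thus below every control, and below every library of miR-133a (106 to 116 CPM) and miR-155 (107 to 119 CPM). The log2 fold change was -0.80 ± 0.074 for miR-302a (adjusted p = 1.41e-06), -0.99 ± 0.074 for miR-372 (7.69e-08) and -0.94 ± 0.073 for miR-373 (1.63e-07). The 3 comparisons share the controls, and the call held in every alternative fit and with any library left out, for each of the 3 miRNAs.

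Against the miRNA groups that do not carry the AAGUGCU seed, with no control library in the contrast, HSPA4L was also lower in all 6 direct comparisons. The controls were still part of the fit behind each SE. It was 0.57 to 0.77 (log2) lower than in miR-133a and 0.62 to 0.81 lower than in miR-155, with the largest of the 6 adjusted p at 2.52e-05. The backgrounds were 12.6%, 14.1% and 12.6% of genes called for miR-133a against the 3 groups in the order above, and 17.3%, 18.8% and 18.1% for miR-155. Among themselves miR-302a, miR-372 and miR-373 did not pass the test for HSPA4L, with miR-302a 0.20 ± 0.074 above miR-372 and 0.14 ± 0.074 above miR-373 (adjusted p = 1 for both). The lowest miR-302a library, at 69.47 CPM, lay above the highest of miR-372, at 67.56 CPM, and all but level with the highest of miR-373, at 69.46 CPM. Between these groups edgeR's quasi-likelihood test called 0% of the 14054 genes, with 0.868%, 1.31% and 1.11% at an unadjusted p under 0.05 (miR-302a with miR-372, miR-302a with miR-373, miR-372 with miR-373), and DESeq2 called 0, 3 and 1 genes. The replicate number as a block, which applies to direct pairs whose libraries deviated together, changed none of these calls. In batch 1, HSPA4L was at 0.05 for miR-1 and 0.0007 for miR-122.

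**Figure D4:**
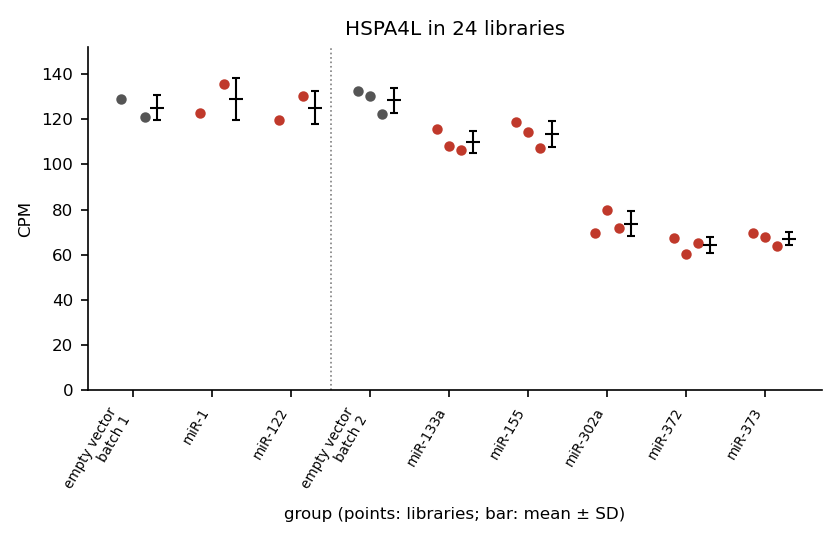
CPM of HSPA4L (y axis, from 0) in each of the 24 libraries by group (x axis), with mean ± SD beside the points. The 9 libraries of the AAGUGCU groups lie between 60.5 and 80.0 CPM, below the 106 to 136 CPM of all other libraries.

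HSPA4L (chr4:128702976-128761888, + strand, GRCh37) has a longest annotated 3′UTR of 7859 bases, and it held 7 matches to the shared seed, 3 of them 8mers. They are shown because no other member had more than 1 8mer for this seed. The 3 8mers read as follows, with the matched bases in capitals.
HSPA4L 8mer, chr4:128755027-128755034: acttgaaaaggAGCACTTAtaccataagtc
HSPA4L 8mer, chr4:128755583-128755590: acaatgtagtcAGCACTTAatggagagtat
HSPA4L 8mer, chr4:128757782-128757789: gtcagtgttaaAGCACTTAatccaaattag
The 8mers start at bases 998, 1554 and 3753 of the 3′UTR. The other 4 matches, all 7mer-m8, share the upstream flank cctgtaatcc, as does 1 match in ATF6, which was not called. The 3′UTR of HSPA4L is the longest of the 50 members, before those of ERN1 (6214 bases) and ATF6 (5416 bases). The number of matches was not set against this length.

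A match to this seed was found in 8 members (16.0%, against 26.4% of genes), and HSPA4L was called lower in all 3 groups and the other 7 in none. ERN1 has an 8mer (chr17:62119188-62119195, - strand) and was at 0.01, -0.06 and 0.08 in the 3 groups in the same order, none past the test. The other 6, ATF6, DNAJA2, HSPA13, HSPA2, HSPA5 and HSPH1, held 7mers only. HSPA13 lay at -0.25, -0.24 and -0.20 with adjusted p of 0.0921, 0.0858 and 0.233.

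With HSPA4L, miR-302a called 2 of 50 members (4%, background 7.88%, of which 4.85% lower and 3.02% higher). For miR-372 it was 5 of 50 (10.0%, background 11.4%, 6.56% lower and 4.82% higher). For miR-373 HSPA4L was the single call (2%, background 5.13%, 3.30% lower and 1.83% higher). TRAP1 stood at 444, 468 and 457 CPM in the controls, at 560, 490 and 580 CPM with miR-302a and at 542, 531 and 549 CPM with miR-372, above the controls in every library. It rose by 0.25 ± 0.072 with either miRNA (adjusted p = 0.0384 and 0.0343) and was at 0.17 with miR-373 (adjusted p = 0.223). With miR-372, HSPB1 rose from 15.2, 12.9 and 15.2 CPM to 21.2, 21.1 and 20.4 CPM (0.53 ± 0.156, adjusted p = 0.0322). CHAC1 rose from 10.5, 13.6 and 13.8 CPM to 17.8, 19.5 and 15.9 CPM (0.48 ± 0.145, adjusted p = 0.0388), and DNAJB1 from 103, 112 and 116 CPM to 144, 149 and 118 CPM (0.31 ± 0.095, adjusted p = 0.0393). Each call of TRAP1, HSPB1, CHAC1 and DNAJB1 was lost in at least 5 of the 6 fits with a library left out, those of TRAP1 also without the filter on low counts, those of CHAC1 and DNAJB1 also without the 3 replicate 2 libraries, and those of all but HSPB1 in the fit of only the groups compared.

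HSPB1 was lower in miR-133a, at 12.0, 14.7 and 11.5 CPM, than in miR-302a (-0.65 ± 0.159, adjusted p = 0.00975), miR-372 (-0.72 ± 0.157, adjusted p = 0.0039) and miR-373 (-0.59 ± 0.157, adjusted p = 0.0165). Every library of miR-302a and miR-373 lay at 15.1 CPM or above, so that no library overlapped those of miR-133a. HSPB1 was lower with miR-1 in batch 1 as given above.

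miR-155 called 2 of 50 members (4%, background 7.63%, of which 4.81% lower and 2.82% higher). ERN1, which encodes the ER stress sensor and RNase IRE1, stood at 15.9, 18.9 and 17.3 CPM in the controls and at 12.1, 9.56 and 13.3 CPM with miR-155. The groups did not overlap, and ERN1 fell by 32.9% (-0.58 ± 0.143, adjusted p = 0.0175). It was also lower than in miR-302a (-0.59 ± 0.143, adjusted p = 0.00715), miR-372 (-0.52 ± 0.142, adjusted p = 0.0142) and miR-373 (-0.65 ± 0.141, adjusted p = 0.00294). Against miR-133a (background 16.7%) the adjusted p was 0.0523, and 0.0272 with the replicate number as a block, since the libraries of these groups deviated together by number. The call against the empty vector held in every alternative fit and in 3 of 6 fits with a library left out. It was lost without replicate 2 or 3 of the empty vector and without replicate 2 of miR-155, which had the lowest value and is among the 3 replicate 2 libraries above.
ERN1, 7mer-m8 match to the miR-155 seed, chr17:62117082-62117088, - strand: cttacctagaaAGCATTAccagtcaccta
XBP1, the substrate of IRE1, was at 0.12 with miR-155 (adjusted p = 0.356), and DNAJB9 at 0.20 (adjusted p = 0.31).

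HSPA2 rose with miR-155 from 9.90, 11.1 and 10.6 CPM to 15.1, 13.2 and 14.8 CPM (0.45 ± 0.133, adjusted p = 0.0454), a call lost with any library left out and without the filter on low counts. It carries a 7mer-A1 match to the miR-155 seed. DNAJB1 has the single 8mer of this seed among the members, at the very end of its 3′UTR.
DNAJB1, 8mer for miR-155, chr19:14625600-14625607, - strand: tgaagtgcgacAGCATTAAagactg
With miR-155 DNAJB1 was at 95.3, 101 and 91.0 CPM, all below its controls, and the difference of -0.21 ± 0.096 had an adjusted p of 0.194. Against the other miRNA groups it was lower: by 0.36 than in miR-133a (adjusted p = 0.0128), 0.49 than in miR-302a (0.0014), 0.52 than in miR-372 (0.000712) and 0.44 than in miR-373 (0.00317). These gaps also hold any change of the other group from the controls, and DNAJB1 was called higher with miR-372 as given above. Seed matches for miR-155 were in 8 members (16.0%, against 16.9% of genes), of which ERN1 was called lower, HSPA2 higher and 6 not. ATF6 and DNAJC3, among those not called, carry a 7mer-m8 match as ERN1 does.

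miR-133a called 2 of 50 members, both higher (4%, background 5.34%, of which 3.97% lower and 1.37% higher). BAG3 stood at 45.6, 50.7 and 48.3 CPM in the controls and at 59.9, 64.9 and 62.3 CPM with miR-133a, with no overlap, and rose by 0.37 ± 0.103 (adjusted p = 0.0404). HERPUD1 stood at 51.2, 47.6 and 54.6 CPM and at 63.3, 62.7 and 60.2 CPM (0.28 ± 0.078, adjusted p = 0.0414). The call of BAG3 was lost with any library left out, and that of HERPUD1 in 5 of 6 such fits and without the filter on low counts. XBP1, at 113, 105 and 108 CPM against 136, 132 and 125 CPM, had the same size of difference (0.27 ± 0.078) and an adjusted p of 0.0502. XBP1 was higher in miR-133a than in miR-302a (0.27, adjusted p = 0.0286), miR-372 (0.29, adjusted p = 0.0155) and miR-373 (0.28, adjusted p = 0.0226).

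For miR-133a the number of calls depended on which libraries entered the fit. In the fit over all 6 groups 42 of 50 members lay above 0, with a median of 0.15, against 7040 of 14054 genes, with a median of 0.0004. Against the same controls 31 of 50 members lay above 0 with miR-155, 32 with miR-302a, 35 with miR-372 and 32 with miR-373. With miR-133a 29 of 50 had no overlap with the controls, or 58.0% against 35.4% of all genes, and 2 passed the test. Fitted on the miR-133a and empty vector libraries alone, 14 members were called higher and 1, HSPA4L, lower, against a background of 17.3%. Without the 3 replicate 2 libraries, 13 were called higher and 1 lower, against 16.1%. The genes that both fits called higher but the fit of all groups did not comprised the ER genes HSPA5 (0.34), SDF2L1 (0.48), MANF (0.36), PDIA6 (0.19), XBP1 and TRIB3 (0.32), the mitochondrial pair HSPD1 (0.26) and HSPE1 (0.36), and the cytosolic AHSA1 (0.24), DNAJA2 (0.25) and HSPA14 (0.19). HSPA5, chosen after its values were seen, had controls at 404, 354 and 367 CPM and miR-133a libraries at 490, 471 and 462 CPM with no overlap. Its miR-302a and miR-372 libraries ran from 319 to 477 and from 326 to 512 CPM. Why the number of calls differed between the fits was not tested.

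The miR-133a seed matched the 3′UTR of 6 members (12.0%, against 15.4% of genes), none called in the fit of all groups. HSPA4L has the only 8mer (chr4:128760177-128760184), and its 116, 108 and 106 CPM with miR-133a lay below all controls, a difference of -0.22 ± 0.074 with an adjusted p of 0.0812.

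Without the 3 replicate 2 libraries, miR-155 called 4 members (3 lower, background 8.21%) and miR-302a called 9 (5 lower, background 24.2%). miR-372 then called 4 (2 lower, background 14.2%) and miR-373 called 5 (1 lower, background 12.0%). Fitted on their own groups and the controls alone, miR-302a called 1 (background 7.55%) and miR-372 called 2 (background 5.95%). HSPA4L had the lowest log2 fold change of the calls in each AAGUGCU group, at -0.86 (miR-302a), -0.95 (miR-372) and -0.94 (miR-373). CALR was then lower with miR-302a (-0.34, adjusted p = 0.0103) and miR-372 (-0.37, adjusted p = 0.00773), and HSPB1 higher with miR-302a (0.64), miR-372 (0.53) and miR-373 (0.42). ERN1 and HSPA2 kept their calls with miR-155.

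Asked whether a member differed among any of the 6 groups of batch 2, the test called 11 of 50 (22.0%, background 26.6%). By adjusted p these were HSPA4L (7.45e-09), DNAJB1 (0.00237), HSPB1 (0.00833), HSP90AB1 (0.0126), ERN1 (0.017), TRAP1 (0.0192), HSPA13 (0.0199), HERPUD1 (0.0293), XBP1 (0.0326), CANX (0.0373) and HSPD1 (0.0448). HSP90AB1, the constitutive cytosolic HSP90, was called in no comparison of batch 2 with the empty vector but was lower in miR-155 than in each AAGUGCU group (miR-302a first, then miR-372, miR-373), by 0.40, 0.47 and 0.42 in that order (adjusted p = 0.0118, 0.00385 and 0.00894). Without the 3 libraries the test of any group called 25 members, against 44.7% of all genes.

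**Figure D5:**
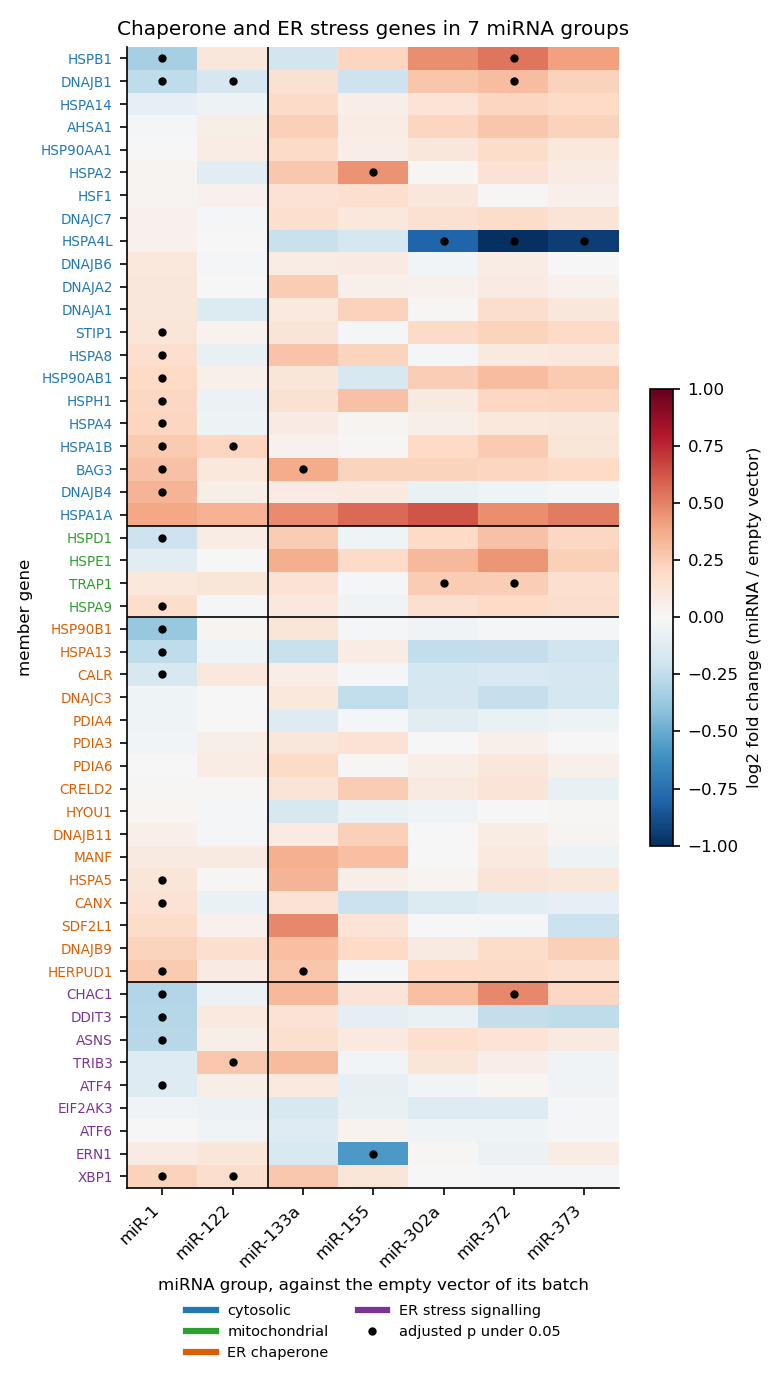
Log2 fold change of the 50 members (rows, label colour by compartment, ordered by miR-1) in the 7 miRNA groups (columns) against the empty vector of the same batch. Blue is lower, red is higher, and black dots mark an adjusted p under 0.05. Dots are densest for miR-1 (23), and the darkest cells are HSPA4L in the 3 AAGUGCU groups.

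Of the sensors and transcription factors at the head of these pathways, HSF1, ATF6 and EIF2AK3 were called in none of the 7 comparisons with the empty vector. HSF1 lay between 0.01 and 0.17, ATF6 between -0.13 and 0.04 and EIF2AK3 between -0.16 and -0.02. ATF4 was called only for miR-1, and otherwise lay between -0.08 and 0.09. DDIT3 was likewise called only for miR-1 (-0.29) and ran from -0.25 to 0.14 elsewhere, with adjusted p of at least 0.368. Whether these effects differ between miR-1 and the miRNAs of batch 2 was not tested, as the batches have separate controls. HSPA1A was above its controls in the mean of all 7 groups, by 0.35 to 0.63, at 0.593 to 1.70 CPM in any library, controls included, and with adjusted p of at least 0.276.

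Promoters were read from RefSeq (GRCh38.p14), 250 bases before to 50 after the start, for 47 of the 50 members. The heat shock element, searched on both strands as GAANNTTC, occurred in 7 members, 6 of them cytosolic (of 19), and in 6.87% of 27305 promoters. The ER stress element, searched as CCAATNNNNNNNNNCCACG, occurred in 6 members, CALR, CANX, CRELD2, HSP90B1, HSPA5 and XBP1, and in 0.0806% of promoters (22 in all). The ATF4 element TGATGNAA occurred in ASNS, CHAC1, HERPUD1 and HSPA4L and in 3.67% of promoters. Windows are printed for genes whose levels with miR-1 moved in different directions, with the motif letters in capitals.
HSPA1B heat shock element, chr6:31827622-31827651, + strand: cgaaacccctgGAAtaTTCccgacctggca
HSPA8 heat shock element, chr11:123062168-123062197, - strand: ggccccttctgGAAggTTCtaagatagggt
HSPB1 heat shock element, chr7:76302480-76302509, + strand: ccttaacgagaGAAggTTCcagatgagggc
HSP90B1 ER stress element, chr12:103930211-103930239, + strand: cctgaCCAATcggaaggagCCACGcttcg
HSPA5 ER stress element, chr9:125241386-125241414, - strand: cttcaCCAATcggcggcctCCACGacggg
XBP1 ER stress element, chr22:28800598-28800626, - strand: gctggCCAATcgcggagggCCACGaccgt
CANX ER stress element, chr5:179698773-179698801, + strand: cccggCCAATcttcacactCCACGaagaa
With miR-1, HSP90B1 (-0.38) and CALR (-0.16) fell while XBP1 (0.23), CANX (0.14) and HSPA5 (0.12) rose, and CRELD2 was at 0.01, so that genes with this element did not move together. Of the genes with the heat shock element HSPA1B and HSPA8 rose, HSPB1 and ASNS fell and DNAJA1 (0.11), DNAJB6 (0.11) and HSPA1A did not pass the test. The match in ASNS overlaps its ATF4 element. BAG3 and DNAJB1, named above as classical targets of HSF1, had no match to GAANNTTC, the only form searched. A match to these letters is not evidence of binding.

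Other genes of the same pathways, taken as lists of textbook members, were counted beside the set, in comparisons with the empty vector only. With miR-1, for which 13.7% of all genes tested were lower and 10.8% higher, of 43 tested genes of ER folding, ER-associated degradation and translocation 13 fell and 3 rose, among them SERP1, a translocon-associated stress protein (-1.34 ± 0.050, adjusted p = 3.25e-13), and the translocon channel SEC61A1 (-0.32 ± 0.041). Of 28 tested genes of the integrated stress response 8 fell and 4 rose, with PSAT1 (-0.52), PCK2 (-0.56), ALDH1L2 (-0.78) and ATF5 (-0.50) lower and PPP1R15A (0.25) higher. Besides targets, this list holds the upstream kinases EIF2AK1, EIF2AK2 and EIF2AK4 and their substrate EIF2S1. EIF2AK2 was among the genes that fell and EIF2S1 among those that rose. Of 14 subunits of the TRiC chaperonin and prefoldin 4 rose (CCT2, CCT7, CCT8 and TCP1) and 1 fell (PFDN1), of 31 further cytosolic cochaperones 3 rose and 2 fell, and of 15 mitochondrial chaperones and proteases 3 rose and none fell. The rises in the ER list and both counts of the cochaperones lay below the shares of all genes. The medians of the lists ran from -0.05 for the ER list to 0.10 for the mitochondrial list.

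For the other miRNAs these lists held at most 5 calls in a direction. With miR-122 (1.86% of all genes higher, 4.06% lower), 5 of 28 genes of the integrated stress response list rose, ATF3 (0.21) and DDIT4 (0.28) among them, and 2 fell, including MTHFD2 (-1.07 ± 0.041, adjusted p = 3.08e-13). With miR-133a (3.97% of all genes lower), 5 of 43 genes of the ER list fell and none rose, including OS9 (-0.30), and the HSP90 cochaperone UNC45A fell (-0.95 ± 0.078, adjusted p = 1.7e-07). OS9 and UNC45A (-0.32) were called lower with miR-1 too. With miR-155 the ER mannosidase-like EDEM3 fell (-0.62 ± 0.089, adjusted p = 0.000163). HSPA6, a strictly inducible HSP70, had a mean of 0.334 CPM in the controls of batch 2 and of 0.667 to 1.07 CPM in its 5 miRNA groups, which share those controls. The difference passed the test with miR-155 (adjusted p = 0.043) and not in the other groups (adjusted p of 0.0615 to 0.224). ATF6B, the paralogue of ATF6, fell in the groups with the AAGUGCU seed, by 0.88 with miR-302a, 1.08 with miR-372 and 0.78 with miR-373 (adjusted p at most 0.000244), and rose with miR-122 (0.21). DNAJB2, an HSP40 cochaperone, rose by 0.38, 0.63 and 0.52 in these groups, by 0.47 with miR-155 (adjusted p = 0.00441) and by 0.21 with miR-1 (adjusted p = 0.049). None of the 14 TRiC and prefoldin subunits was called in a comparison of batch 2 with the empty vector.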

How the data were processed

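Polyadenylated RNA of 24 libraries was sequenced by the authors, who aligned trimmed reads to hg19 (TopHat2 2.1.1) and counted them by strand over exons with featureCounts (mapping quality of at least 50). The deposited counts per gene, without normalization, are in a table per batch, with a column of feature length in bases, used here for CPM per kb. Further deposited tables hold the fold changes and p-values of the authors' own comparisons and were not used. Groups and replicate numbers came from the labels.

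The test was that of edgeR 4.0.16 in R 4.3.3: filterByExpr (minimum count of 10), TMM, and a quasi-likelihood fit of all groups of a batch, adjusted by Benjamini-Hochberg over all genes tested (14348 in batch 1, 14054 in batch 2), with a threshold of 0.05. Each SE was obtained by dividing the size of the log2 fold change by the root of its F statistic, and fold changes used a prior count of 0.125. CPM are from TMM-scaled library sizes (unscaled totals of 13047400 to 35040778 counts), except those of the cell type markers, which are from the unscaled totals. Direct pairs of miRNA groups were adjusted over genes, not over pairs. The code was tested on simulated counts. Same-group libraries differed beyond counting noise (chi-square per degree of freedom of 1.81 to 35.3), and each was kept as a sample, which does not show separate cultures.

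The members and lists were chosen with earlier results of these data known. Members were named by rule: per comparison, up to 5 lowest and 5 highest of the called, and HSPA1A, HSPA5, DNAJB9, ATF4, DDIT3, HSF1 and XBP1 throughout. Others named in the text were chosen after their values were seen. 2 symbols of the stress response list (GARS, SARS) and PECAM1 were not matched. Alternatives were DESeq2 1.42.0, its size factors, other filters, a fit of only the groups compared, a replicate block and each library left out. Replicate numbers were checked for pairing by correlating deviations from group means. Same-numbered libraries correlated above 0.1 throughout for miR-133a with miR-155 and miR-372, miR-155 with miR-302a and miR-372, and miR-302a with miR-372, and for no group with the empty vector. 1 sequence window is not reported here.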

Additional observations from a re-analysis of the deposited data

How the results depend on the processing

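Of 855 fold changes recomputed for single named genes none reversed a call, 99 lost it and 8 gained one. Many of the 855 belong to genes followed in every comparison whether called or not, which had no call to lose. The 99 are therefore not to be read as a share of 855 calls. Of 119 counts of called members 71 stayed within 1.5 times the value given, and the other 48 follow. With the replicate number as a block miR-122 and miR-373 called 2 each, miR-302a called 5, miR-133a called 6, miR-372 called 10 and the test of any group of batch 2 called 18, and no other count moved by over 1.5 times. The numbers did not pair the miRNA libraries with those of the empty vector, whose deviations correlated at -0.04 and -0.03 in batch 1, so the block has no basis in pairing there. DESeq2's test called 2 for miR-122 and 5 for miR-133a. Without a filter on low counts miR-155 called 1. With only the groups compared in the fit miR-133a called 15, miR-302a 1 and miR-372 2. Without replicate 2 of miR-155, miR-302a and miR-372, chosen after the data were seen, miR-133a called 14, miR-155 4, miR-302a 9, miR-373 5 and any group 25. The causes were not tested. For the block, DESeq2 and the fits with another filter, the share of all genes called was not counted. The counts of members from those fits therefore have no background to be set against.

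With each library left out in turn the counts ran from 12 to 23 (miR-1), 13 to 19 (miR-1 against miR-122), 1 to 6 (miR-122), 1 to 9 (miR-372), 1 to 4 (miR-302a) and 5 to 13 (any group). They ran from 0 to 1 for both miR-155 and miR-133a, and stayed at 1 for miR-373. The lowest count came without replicate 1 of miR-1 for miR-1, without either miR-122 library for miR-122, and without replicate 1 of miR-155 for any group. The 9 for miR-372 came without its replicate 3. The share of all genes called was not counted in these fits either. In batch 1 a fit with a library left out leaves 1 library in a group, which is assumed to vary like the others. The SE was larger at low counts: with miR-1 it was 0.12 for HSPA2, near 10 CPM, and 0.036 for HSP90B1, above 800 CPM.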
